A study of Mus musculus with 16 samples.

Results

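Genes of the collagen scaffold and its associated proteins were followed in mouse liver across 4 diets: the fibrillar collagen chains Col1a1, Col1a2, Col3a1 and Col5a1, the basement membrane chains Col4a1 and Col4a2, the small leucine-rich proteoglycans Dcn and Lum, the gelatinase Mmp2 and the collectin Colec11. They were chosen by gene symbol as a working set of matrix genes linked to the hepatic stellate cell, and these 10 are among the 20827 gene symbols of the deposited table. All 10 had tags in at least 1 mouse, and together they held 2074 of 1379164 tags in named genes.

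The mice were male C57BL/6J animals, given in the labels as 4 weeks of age, and were fed for 18 weeks in 4 groups of 4. HFW mice ate a high-fat diet (45% fat) containing 1% WEPAK, which the labels describe as what dissolves in water from Pacific krill; HF mice ate the high-fat diet alone; NW mice ate a normal diet (10% fat) with 1% WEPAK; and N mice ate the normal diet alone. Liver RNA of each mouse was counted by SuperSAGE, a method in which each captured transcript is represented by the short stretch that follows one of its NlaIII sites, so that long and short transcripts give 1 tag alike. Mice are named here by their group and the number in the labels. The labels give no fibrosis score, no liver histology and no isolation of cell types: liver tissue was measured.

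Collagen is the main protein of the extracellular matrix. Fibrillar chains wind into triple helices that are secreted and assembled into fibres, whereas type IV chains form the sheet-like network of basement membranes. In a healthy liver little fibrillar collagen is made. Stellate cells, which store vitamin A in the space between hepatocytes and sinusoids, are known as the main source of collagen when the liver scars, and portal fibroblasts and endothelial cells also make matrix. In whole-liver RNA, a change in the number of cells of a type and a change in RNA per cell cannot be told apart.

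The tag expected from each of the 10 transcripts is the 26 bases that start at its last NlaIII site, and these tags are shown because they are what the method reads from each gene. They were read from the GENCODE M21 transcript (build GRCm38) that matches the RefSeq entry in the table; the sources used here do not state the RefSeq release or how tags were matched. Capitals mark the NlaIII site.
Col3a1: CATGccacaggatcttctcttctttt
Col1a2: CATGgttccaaagaagtcttgtttct
Col1a1: CATGtgcaggctgggtgggagagacc
Col5a1: CATGtgattcggattctgcctcccac
Col4a1: CATGgtgtctgataatgagccctgtg
Col4a2: CATGgctctagccaaacccacagcaa
Dcn: CATGacttattatgcaagctgaatat
Lum: CATGttatgattaatagttgatagca
Mmp2: CATGggaaatggcaaacaagtataaa
Colec11: CATGgaagtgccgggcctcattgaca

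All 10 tags lay in the 3′ UTR, in the last exon. None of the 10 occurred beside an NlaIII site in a transcript of another GENCODE gene (0 other genes for each), so these sequences do not mix the collagen chains with each other. The Col3a1 tag was at chr1:45349527-45349552 on the plus strand, in exon 51 of 51 and 154 bases before the annotated end of the transcript. The Col1a2 tag was at chr6:4541408-4541433 (plus strand, exon 52 of 52), 111 bases from the end. The Col1a1 tag was at chr11:94952344-94952369 (plus strand, exon 51 of 51), 673 bases from the end. The type IV pair shares chromosome 8, with the Col4a1 tag at chr8:11198902-11198927 on the minus strand and the Col4a2 tag at chr8:11449080-11449105 on the plus strand. The GC content of the tags ran from 26.9% in Lum to 65.4% in Col1a1.

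Libraries held 56655 to 149349 tags in named genes, so that 1 tag stands for 6.696 to 17.65 tags per 1000000. HF libraries were the deepest as a group, with 475527 tags in all, against 302995 in HFW, 296790 in NW and 303852 in N. The hepatocyte list was detected in full, with 10 of 10 genes tagged in every group. The 4 mice of a group are separate animals. Levels in CPM are tags per 1000000 of the normalized library size, whereas levels given as tags per 1000000 are not normalized further, and tests are edgeR quasi-likelihood tests adjusted over all genes by Benjamini-Hochberg. The default filter on low counts kept 1046 genes and 3 of the 10 members, Col1a1, Col1a2 and Col3a1. The filter asks for about 126 tags per 1000000 in at least 4 mice. Col3a1 reached this in all 16 mice and Col1a2 in 8, namely 2 HFW, 3 HF, 1 NW and 2 N mice. Col1a1 reached it in 4 mice, 3 in HFW and 1 in HF, and none on the normal diet, so it entered the test through its high-fat libraries alone and its presence there supports no direction.

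Col3a1, the chain of type III collagen that forms thin reticular fibres in the liver, was by far the most tagged member, with 1171 tags. It had 2645, 629, 1770 and 817 CPM in HFW mice 34, 36, 38 and 40, against 211, 657, 2432 and 390 CPM in HF mice 23, 25, 28 and 29. On the normal diet it had 171, 433, 580 and 626 CPM in NW mice 11, 12, 15 and 20, and 640, 400, 410 and 216 CPM in N mice 4, 5, 7 and 8. HFW mice 34 and 38 and HF mouse 28 stood above all other mice, HFW mouse 40 came next, and the other high-fat mice, at 657 CPM or below, lay beside the mice on the normal diet. The HFW and NW groups did not overlap, though only by 629 against 626 CPM at their nearest mice. Among all 1046 genes tested, 8.8% did not overlap between HFW and NW in either direction. HF and N mice overlapped in all 10 members, as did HFW and HF mice and NW and N mice. Of the 1046 tested genes, which hold 3 of the 10 members, 3.06%, 15.7% and 15.5% did not overlap in these pairs. The 7 members below the filter have too few tags to be set against these shares.

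Col1a2, the second chain of type I collagen, had 346 tags. Its levels were 638, 140, 130 and 103 CPM in HFW mice 34, 36, 38 and 40, against 137, 294, 868 and 110 CPM in HF mice 23, 25, 28 and 29. NW mice 11, 12, 15 and 20 had 85.3, 102, 187 and 86.9 CPM, and N mice 4, 5, 7 and 8 had 298, 114, 199 and 116 CPM. HFW mouse 34 and HF mouse 28 were again the highest, but HFW mouse 38, which was high in Col3a1, was within the range of N mice for Col1a2. No pair of groups was separated.

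Col1a1, the main chain of type I collagen, had 207 tags. It had 673, 52.4, 298 and 141 CPM in HFW mice 34, 36, 38 and 40, against 10.5, 106, 418 and 50.9 CPM in HF mice 23, 25, 28 and 29. NW mice 11, 12, 15 and 20 had 0, 85, 112 and 52.1 CPM, and N mice 4, 5, 7 and 8 had 29.8, 85.8, 66.2 and 83.1 CPM. The same 3 high-fat mice, HFW 34 and 38 and HF 28, were the highest, and every other mouse was at 141 CPM or below. NW mouse 11 was without a Col1a1 tag, and HF mouse 23 had 1 tag.

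**Figure D1:**
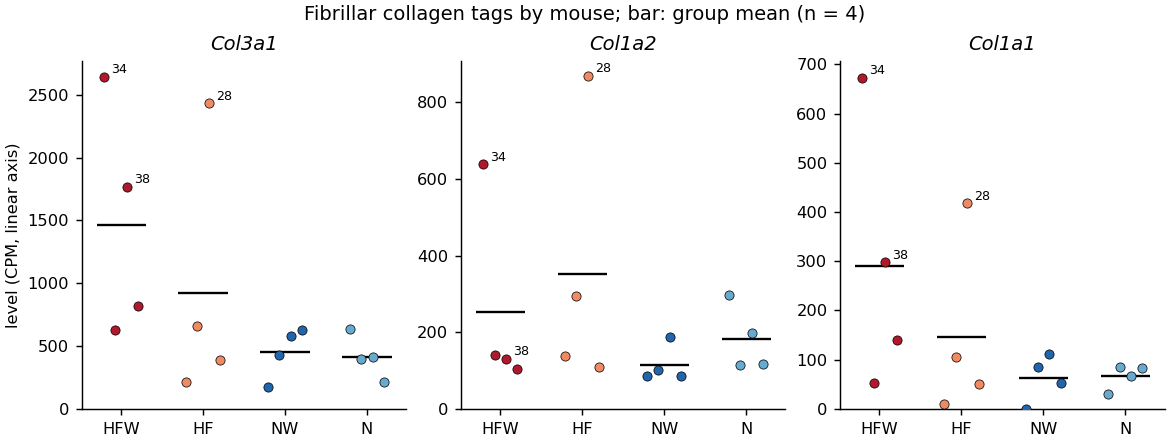
Level of Col3a1, Col1a2 and Col1a1 in CPM (linear axis) in each mouse of the HFW, HF, NW and N groups; each point is a mouse, the bar is the group mean (n = 4) and mice 34, 38 and 28 are numbered. HFW mouse 34 and HF mouse 28 are the 2 highest in all panels, at 2645 and 2432 CPM for Col3a1, and HFW mouse 38 is high for Col3a1 and Col1a1 but not for Col1a2.

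Col5a1, a chain of type V collagen that regulates the width of type I fibres, was close to the limit of detection with 17 tags. HFW mouse 34 had 4 tags and the other 3 HFW mice 0. HF mice 23, 25, 28 and 29 had 1, 2, 3 and 1 tags. NW mice 12 and 15 had 2 and 1 tags and the other NW mice 0, and N mouse 7 had 3 and the other N mice 0. Every HF library therefore had a Col5a1 tag, and HF was the deepest group, though not in each library. HF mouse 23 had 91468 tags in named genes. N mouse 5 (100426) and HFW mouse 40 (101481) were deeper and had 0 Col5a1 tags, and NW mouse 12 (120143) was deeper and had 2. The part of depth was not tested. Summed by group, the level was 13.2 tags per 1000000 in HFW (95% exact Poisson interval 3.6 to 33.8, counting error only), 14.7 in HF (5.92 to 30.3), 10.1 in NW (2.08 to 29.5) and 9.87 in N (2.04 to 28.9). These intervals overlap throughout.

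High-fat and normal diets without the extract were compared first. Mean Col3a1 was 922 ± 1023 CPM in HF mice, against 417 ± 174 CPM in N mice (SD, n = 4 each), and the log2 fold change was 1.15 (SE 0.69, edgeR adjusted p = 0.615). The SD in HF exceeded the mean, and HF mouse 28 alone held 297 of the 468 HF tags. Col1a2 averaged 352 ± 353 CPM in HF and 182 ± 86.6 CPM in N (log2 fold change 0.98, SE 0.69, edgeR adjusted p = 0.647), and Col1a1 averaged 146 ± 185 CPM in HF and 66.2 ± 25.8 CPM in N (1.13, SE 0.95, edgeR adjusted p = 0.709). None (0) of the 3 tested members passed by edgeR, where 0.0956% of all genes did. An unadjusted p under 0.05 was found for 0 members, where 9.85% of all genes had one, and the DESeq2 Wald test also called 0 members. Without HF mouse 28 the log2 fold changes were 0.08 for Col3a1, 0.11 for Col1a2 and -0.09 for Col1a1.

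The same diet contrast in the presence of the extract gave larger values. Mean Col3a1 was 1465 ± 932 CPM in HFW mice, against 453 ± 205 CPM in NW mice (SD, n = 4 each), and the log2 fold change was 1.70 (SE 0.70, edgeR adjusted p = 0.360), with 4 of 4 HFW mice above the NW mean. Col1a1 averaged 291 ± 274 CPM in HFW and 62.4 ± 48.3 CPM in NW (log2 fold change 2.17, SE 0.95, edgeR adjusted p = 0.382). Col1a2 averaged 253 ± 257 CPM in HFW and 115 ± 48.5 CPM in NW (log2 fold change 1.20, SE 0.79, edgeR adjusted p = 0.525). Of the 3 members 0 passed by edgeR, where 0% of all genes passed. Col3a1 and Col1a1, 2 members, and 126 of all genes (12%) had an unadjusted p under 0.05. Col1a1 passed the filter through its high-fat libraries alone, so its p supports no direction. The DESeq2 Wald test called 0 members and 0 of all genes. Without HFW mouse 34 the log2 fold changes were 1.20 for Col3a1, 1.26 for Col1a1 and 0.08 for Col1a2.

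Averaged over both extract states, which uses all 16 mice, the high-fat diet had a log2 fold change of 1.42 for Col3a1 (SE 0.49, edgeR adjusted p = 0.134), 1.65 for Col1a1 (SE 0.67, edgeR adjusted p = 0.200) and 1.09 for Col1a2 (SE 0.53, edgeR adjusted p = 0.257). The edgeR test called 0 members, against 0.574% of all genes. Col3a1 and Col1a1, 2 members, and 215 of all 1046 genes (20.6%) had an unadjusted p under 0.05. For Col1a1, which was tested through its high-fat libraries alone, this p supports no direction. DESeq2 called 0 members and 17 of the 1046 genes. Leaving out HF mouse 28 and HFW mouse 34 together, a choice made after seeing the data, gave 0.63 for Col3a1 and 0.09 for Col1a2, while Col1a1 no longer had enough tags to be tested.

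The extract on the high-fat diet was examined next. In HFW against HF, the log2 fold change was 0.66 for Col3a1 (SE 0.65, edgeR adjusted p = 0.544), 0.99 for Col1a1 (SE 0.78, edgeR adjusted p = 0.435) and -0.44 for Col1a2 (SE 0.66, edgeR adjusted p = 0.704). With edgeR 0 members passed, where 9.85% of all genes did. An unadjusted p under 0.05 was found for 0 members, where 28.6% of all genes had one. DESeq2 called 0 members, where it called 109 of the 1046 genes. This comparison turned on HF mouse 28. Without it, Col3a1 (1.74, edgeR adjusted p = 0.0259) and Col1a1 (2.22, edgeR adjusted p = 0.0378) passed as higher in HFW, and Col1a2 had 0.45 (edgeR adjusted p = 0.604). In that fit 150 of 1067 genes (14.1%) passed. Col1a1 then reached the cutoff of the filter in 3 HFW mice and 0 mice of the other groups, so it was tested through the HFW libraries alone and its call supports no direction. Without HFW mouse 34 in place of it, Col3a1 had 0.17, Col1a1 0.08 and Col1a2 -1.55, and 0 of them passed by edgeR (smallest adjusted p = 0.121).

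The extract on the normal diet was compared in the same way. In NW against N, the log2 fold change was 0.11 for Col3a1 (SE 0.73, edgeR adjusted p = 0.942), -0.06 for Col1a1 (SE 1.15, edgeR adjusted p = 0.983) and -0.66 for Col1a2 (SE 0.83, edgeR adjusted p = 0.655). No member (0) passed by edgeR, where 11% of all genes did. An unadjusted p under 0.05 was found for 0 members, where 28.5% of all genes had one. DESeq2 called 0 members, where it called 117 of the 1046 genes. The SEs, from 0.73 to 1.15 on the log2 scale, were larger than each of these values. The mean extract effect over both diets was 0.39 for Col3a1 (SE 0.49), 0.46 for Col1a1 (SE 0.70) and -0.55 for Col1a2 (SE 0.53). By edgeR 0 members passed there, where 31.3% of all genes did. An unadjusted p under 0.05 was found for 0 members, where 42.5% of all genes had one. DESeq2 called 0 members, where it called 313 of the 1046 genes. Without HF mouse 28, Col3a1 passed in the mean extract effect (0.95, edgeR adjusted p = 0.0410), where 335 of 1067 genes (31.4%) did. With each mouse left out in turn, the mean extract effect ran from 0.17 to 0.95 for Col3a1, from 0.04 to 1.11 for Col1a1 and from -1.08 to -0.08 for Col1a2.

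The difference between the extract values on the 2 diets was tested as an interaction. Its log2 value was 0.56 for Col3a1 (SE 0.98), 1.05 for Col1a1 (SE 1.40) and 0.21 for Col1a2 (SE 1.05). By edgeR 0 members and 0% of all genes passed, 0 members and 26 of all genes had an unadjusted p under 0.05, and DESeq2 called 0 genes. With each mouse left out in turn it ran from 0.01 to 1.58 for Col3a1, from 0.08 to 2.22 for Col1a1 and from -0.95 to 1.06 for Col1a2. The larger high-fat values with the extract than without it are thus not shown to differ.

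**Figure D2:**
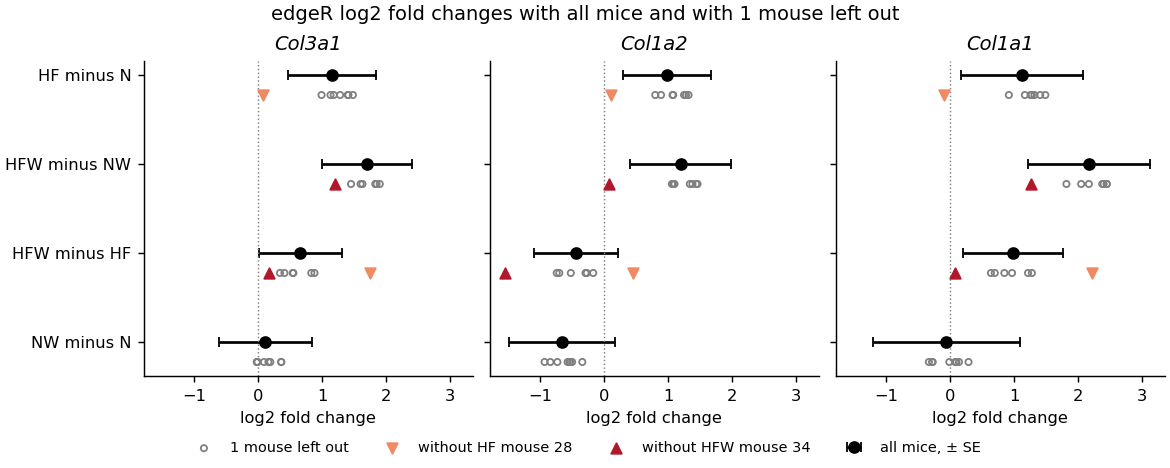
Log2 fold change (horizontal axis) of Col3a1, Col1a2 and Col1a1 in HF minus N, HFW minus NW, HFW minus HF and NW minus N; black points with bars are the edgeR value with all mice ± SE, and the symbols under them are the values with 1 mouse left out. Without HF mouse 28 the HF minus N values lie near 0, at 0.08 for Col3a1, and the HFW minus HF values move up, to 1.74 for Col3a1.

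In tags, the ratio of the type I collagen chains varied between mice, and several of these ratios rest on few tags. Type I collagen is built from pairs of the Col1a1 product with a single Col1a2 product. In tags, Col1a2 had 0.880 tags per Col1a1 tag over the HFW libraries (81 against 92), 2.39 in HF (179 against 75), 1.68 in NW (32 against 19) and 2.57 in N (54 against 21). Among HFW mice the ratio was 0.948 in mouse 34, 2.67 in mouse 36, 0.438 in mouse 38 and 0.733 in mouse 40. In HF mice it was 13.0 in mouse 23, with 1 Col1a1 tag, and 2.76, 2.08 and 2.17 in mice 25, 28 and 29. HFW mouse 36, with 8 and 3 tags, lay inside the HF range, and the other HFW mice lay below it. In NW mice 12, 15 and 20 the ratio was 1.20, 1.67 and 1.67, mouse 11 being without a Col1a1 tag. In N mice 4, 5, 7 and 8 it was 10.0, 1.33, 3 and 1.40, with 2 Col1a1 tags in mouse 4. These 3 NW mice and N mice 5 and 8 thus also lay below the HF range. The ratio was noticed in the data and was not tested.

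Among the 3 tested members, the profiles of Col1a1 and Col3a1 over the 16 mice were the most alike. Their log2 CPM had a Pearson's r of 0.89 and a Spearman's rho of 0.75 over 16 mice, r of 0.85 after each group was centred on its mean, and r of 0.77 over the 14 mice without HF mouse 28 and HFW mouse 34. These are descriptions, since the gene nearest to each member was picked from 1045 others. Col3a1 was the gene nearest to Col1a1, and Col1a1 the gene nearest to Col3a1. Tubb2a, a beta-tubulin, came next for both, with r of 0.78 to Col1a1 and 0.82 to Col3a1, followed by Slc50a1, a sugar transporter, for Col1a1 (0.77) and Pitpnm1, a phosphatidylinositol transfer protein, for Col3a1 (0.82). Nearest to Col1a2 were Bbc3, a pro-apoptotic BH3-only protein (0.79), Nid2, a basement membrane protein (0.78), and Pofut2, an O-fucosyltransferase (0.74). Over the 14 mice without HF mouse 28 and HFW mouse 34, r to Col1a2 was 0.77 for Bbc3, 0.35 for Nid2 and 0.57 for Pofut2. Over the same mice Tubb2a had 0.57 to Col1a1 and 0.66 to Col3a1, Slc50a1 0.68 to Col1a1, and Pitpnm1 0.61 to Col3a1. Col1a2 had r of 0.70 to Col3a1 and 0.64 to Col1a1 over all mice, and 0.26 and 0.11 over the 14 mice without HF mouse 28 and HFW mouse 34.

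The promoter windows of Col1a2 and Col3a1, from 250 bases before to 50 bases after the annotated start, are shown because these genes peaked in the same 2 mice and parted in HFW mouse 38. They come from RefSeq (GRCm38.p6), which in the table used here had a window for 6 of the 10 members. Capitals mark 3 motifs on either strand, none of which overlap: the CCAAT box with the letters CCAAT, the GC box, searched as GGGCGG, and the TATA box, a motif taken here to be TATAAA.
Col1a2: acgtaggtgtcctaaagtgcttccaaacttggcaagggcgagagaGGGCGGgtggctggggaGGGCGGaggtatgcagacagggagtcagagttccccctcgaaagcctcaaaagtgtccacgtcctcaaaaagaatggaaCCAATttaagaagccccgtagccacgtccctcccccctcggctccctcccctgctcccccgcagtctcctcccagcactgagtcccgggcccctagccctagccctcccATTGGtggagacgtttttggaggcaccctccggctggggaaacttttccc
Col3a1: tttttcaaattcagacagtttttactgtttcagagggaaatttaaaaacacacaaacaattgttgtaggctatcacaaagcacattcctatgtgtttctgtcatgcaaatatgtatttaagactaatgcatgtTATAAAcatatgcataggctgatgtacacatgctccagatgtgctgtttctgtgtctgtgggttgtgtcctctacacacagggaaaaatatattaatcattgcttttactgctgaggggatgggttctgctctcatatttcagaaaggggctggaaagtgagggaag

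The Col1a2 window (chr6:4505368-4505667, plus strand) held 2 CCAAT matches, 2 GGGCGG matches and 0 TATAAA matches, with a GC content of 61.0%. The Col3a1 window (chr1:45311288-45311587, plus strand) held 1 TATAAA match and 0 of the other motifs, with a GC content of 37.7%. Of all 32851 promoter windows in the table, 37.4% held CCAAT, 35.7% GGGCGG and 13.6% TATAAA on either strand. A match describes these letters and shows no binding.

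The basement membrane chains Col4a1 and Col4a2 are transcribed away from each other on chromosome 8, and their promoter windows (chr8:11312777-11313076 on the minus strand and chr8:11312555-11312854 on the plus strand) share 78 bases. Col4a1 had 162, 34.9, 93.2 and 93.9 CPM in HFW mice 34, 36, 38 and 40, and 42.1, 87.6, 106 and 59.3 CPM in HF mice 23, 25, 28 and 29. NW mice 11, 12, 15 and 20 had 51.2, 68, 131 and 104 CPM, and N mice 4, 5, 7 and 8 had 89.3, 105, 52.9 and 49.8 CPM. All groups overlapped. HFW mouse 34 was again the highest of all mice, with 14 tags, while HF mouse 28, with 13 tags, lay close to HF mouse 25, with 14.

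Col4a2 was sparser, with 45 tags. HFW mice 34, 36, 38 and 40 had 3, 4, 4 and 3 tags, and HF mice 23, 25, 28 and 29 had 4, 5, 5 and 3. NW mice 11, 12, 15 and 20 had 2, 3, 3 and 0 tags, and N mice 4, 5, 7 and 8 had 1, 4, 0 and 1. The group sums were 46.2 tags per 1000000 in HFW (95% exact Poisson interval 25.3 to 77.5), 35.7 in HF (20.8 to 57.2), 27.0 in NW (11.6 to 53.1) and 19.7 in N (7.25 to 43.0).

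Dcn and Lum encode decorin and lumican, proteoglycans that bind collagen fibres and set their spacing. Dcn had 3, 0, 0 and 7 tags in HFW mice 34, 36, 38 and 40, against 4, 14, 11 and 8 tags in HF mice 23, 25, 28 and 29. It had 2, 2, 1 and 1 tags in NW mice 11, 12, 15 and 20, and 1, 2, 1 and 4 in N mice 4, 5, 7 and 8. The HF group stood highest, at 77.8 tags per 1000000 (95% exact Poisson interval 54.8 to 107), against 33.0 in HFW (15.8 to 60.7), 20.2 in NW (7.42 to 44.0) and 26.3 in N (11.4 to 51.9). In CPM, HF mice ran from 42.1 to 90.1, N mouse 8 reached 66.4 and HFW mouse 40 reached 65.8, so HF overlapped with HFW and with N. The intervals cover counting error only. HFW mouse 38, which was high in Col3a1 and Col1a1, was without a Dcn tag, at a depth where 1 tag is 17.65 tags per 1000000. All 61 Dcn tags belonged to 1 of the 2 RefSeq entries of this gene, and the other was listed at 0.

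Lum had 2, 1, 3 and 2 tags in HFW mice 34, 36, 38 and 40 and 0, 8, 6 and 1 tags in HF mice 23, 25, 28 and 29. NW mice 11, 12, 15 and 20 had 2, 2, 0 and 0 tags, and N mice 4, 5, 7 and 8 had 0, 3, 0 and 2. The group sums were 26.4 tags per 1000000 in HFW (95% exact Poisson interval 11.4 to 52.0), 31.5 in HF (17.7 to 52.0), 13.5 in NW (3.67 to 34.5) and 16.5 in N (5.34 to 38.4). Their intervals overlap.

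Mmp2, a gelatinase that degrades type IV collagen and denatured fibrillar collagen, had 11 tags in all, 4 in HFW, 4 in HF, 2 in NW and 1 in N, and at most 3 in a mouse. Of the 16 libraries 8 were without an Mmp2 tag. Over a group, 3 tags would be 6.31 to 10.1 tags per 1000000, and each group sum of 1 to 4 tags lies near that limit. The exact Poisson intervals ran from 3.6 to 33.8 tags per 1000000 in HFW, 2.29 to 21.5 in HF, 0.816 to 24.3 in NW and 0.0833 to 18.3 in N, and they overlap.

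Colec11 encodes a soluble lectin of the collectin family, which carries a collagen-like stretch but is a pattern recognition molecule of the complement system. It had 58, 0, 186 and 47 CPM in HFW mice 34, 36, 38 and 40, and 21.1, 43.8, 49.1 and 50.9 CPM in HF mice 23, 25, 28 and 29. In NW mice 11, 12, 15 and 20 it had 102, 17, 56.2 and 34.8 CPM, and in N mice 4, 5, 7 and 8 it had 44.6, 38.1, 39.7 and 49.8 CPM. N mice lay within a range of 38.1 to 49.8 CPM, from 3 or 4 tags each. The high value of HFW mouse 38 rests on 10 tags.

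**Figure D3:**
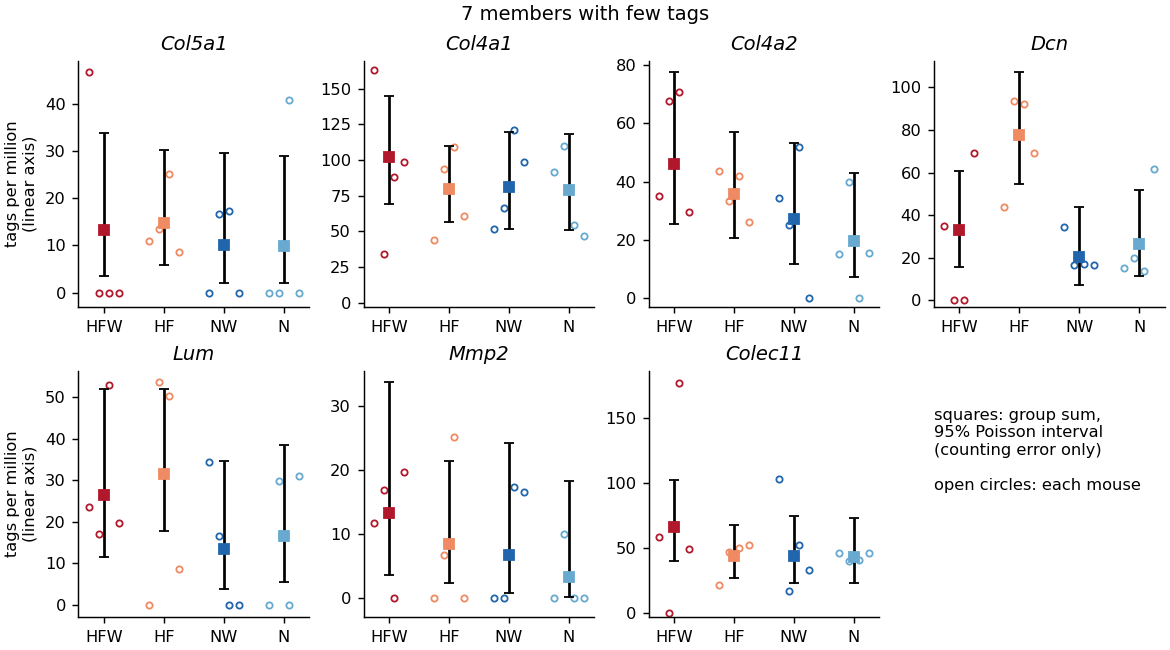
Level in tags per 1000000 (linear axis, of tags in named genes) for Col5a1, Col4a1, Col4a2, Dcn, Lum, Mmp2 and Colec11 in HFW, HF, NW and N; squares are the sum over 4 libraries with its 95% exact Poisson interval, which covers counting error only, and open circles are single mice. Dcn is highest in HF at 77.8 tags per 1000000, where its interval lies above those of NW and N but not that of HFW, and the intervals of the other genes overlap between all groups.

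To give every member a value, the fit was repeated without the filter, over 10171 genes. In HF against N all 10 members had a positive log2 fold change, between 0.17 for Col4a1 and 1.63 for Dcn, with a median of 1.08; 50.9% of all genes were positive, with a median of 0.03. The signs of the smallest values depend on the scaling. Without the filter the mean TMM factor was 0.921 in HF and 1.032 in N, against 1.039 in HF and 1.008 in N with it, and Col3a1 had 1.33 in place of 1.15. In CPM, which uses the factors of the filtered genes, Col4a1 averaged 73.9 in HF and 74.2 in N, and Colec11 41.2 in HF and 43.1 in N, so these 2 were slightly lower in HF and 8 members were higher. In HFW against NW all 10 were also positive, between 0.25 for Col4a1 and 2.20 for Col1a1, with a median of 0.73, where 42.5% of all genes were positive and the median was 0.00. In the mean high-fat effect, which holds both contrasts, all 10 had a median of 0.95, where 55.5% of all genes were positive with a median of 0.13. In HFW against HF 6 were positive and 4 negative (median 0.21), where 42.5% of all genes were positive (Lum was negative here but averaged 28.8 CPM in HFW and 26.9 CPM in HF), and in NW against N 6 and 4 (median 0.05), where 44.4% were. The mean extract effect also had 6 positive members (49.1% of all genes), and the interaction 5 (47.3%). These shares are over all genes with a tag, also those below the filter. Over the 1046 genes of the filtered fit, 48.5% were positive in HF against N and 53.5% in HFW against NW. There the share was 50.9% in the mean high-fat effect, 52.8% in HFW against HF and 47.3% in NW against N. It was 51.1% in the mean extract effect and 60.3% in the interaction.

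In this fit 0 members passed by edgeR in any of the 7 contrasts, and the smallest adjusted p was 0.519. Of all genes 0.00983% passed in HF against N, 0% in HFW against NW, 0.295% in the mean high-fat effect, 1.04% in HFW against HF, 0.688% in NW against N, 2.5% in the mean extract effect and 0% in the interaction. An unadjusted p under 0.05 was found for 1 of 10 members in HF against N (4.59% of all genes), 1 in HFW against NW (4.16%), 4 in the mean high-fat effect (6.8%) and 1 in HFW against HF (7.2%). It was found for 0 members in NW against N (6.53%), the mean extract effect (10.7%) and the interaction (2.99%). DESeq2 was run on the 1046 genes alone. Dcn had the smallest unadjusted p in HF against N (0.0105), with a log2 fold change of 1.63 (SE 0.64). In HFW against HF it had -1.38 (SE 0.61, unadjusted p = 0.0236), where Col3a1 had 0.47 and Col1a1 0.81. These contrasts share libraries. 

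The same fit was repeated without the 2 mice richest in collagen tags, a choice made after seeing the data. Without HF mouse 28, 8 of 10 members were positive in HF against N and their median was 0.19, where 42.9% of all genes were positive. Dcn then had 1.46 (SE 0.67). Without HFW mouse 34, 8 of 10 were positive in HFW against NW with a median of 0.67, where 42.1% of all genes were. In HFW against HF 9 members were positive without HF mouse 28, with a median of 0.42 (48% of all genes positive), and 4 without HFW mouse 34, with a median of -0.09 (41.5% of all genes positive). In the interaction 8 members were positive without HF mouse 28 (50.9% of all genes positive), and 1 without HFW mouse 34 (46.2% of all genes positive).

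Calls of single members in the unfiltered fit also turned on these mice. Without HF mouse 28, Col3a1 passed by edgeR in HFW against HF (1.59, adjusted p = 0.000170), in HFW against NW (1.67, adjusted p = 0.000206), in the mean extract effect (0.84, adjusted p = 0.00754) and in the mean high-fat effect (0.93, adjusted p = 0.0177). Col1a1 passed by edgeR in HFW against HF (2.08, adjusted p = 0.000692) and in HFW against NW (2.14, adjusted p = 0.00616). HF mouse 28 is in neither group of HFW against NW, and the fit shares its estimate of spread over all groups. With that mouse, Col3a1 had 1.73 (SE 0.76) and Col1a1 2.20 (SE 1.02) in this contrast. Without it the SEs were 0.30 and 0.44, so these calls came with smaller SEs and not with larger values. Without HFW mouse 34, Col1a2 passed by edgeR as lower in HFW against HF (-1.68, adjusted p = 0.00901) and in the mean extract effect (-1.17, adjusted p = 0.00439). With both mice left out 0 members passed by edgeR in the 6 contrasts that hold a high-fat group, and 1 to 3 had an unadjusted p under 0.05 in each. No share of all genes was taken for these counts, so they are not read as a result. Over all 10013 genes without HF mouse 28, 1.14% passed in HFW against HF, 0.0699% in HFW against NW, 2.64% in the mean extract effect and 0.2% in the mean high-fat effect. Over all 9989 genes without HFW mouse 34, 0.901% passed in HFW against HF and 2.57% in the mean extract effect. DESeq2 was not run on these fits.

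As a share of the 10 members' own tags, Col3a1 took 62.8% in HFW, 54.4% in HF, 53.6% in NW and 48.9% in N. The 10 members together made up 0.436%, 0.0929%, 0.247% and 0.140% of the library in HFW mice 34, 36, 38 and 40, and 0.0536%, 0.147%, 0.420% and 0.0788% in HF mice 23, 25, 28 and 29. In NW mice the share ran from 0.0515% to 0.109% and in N mice from 0.0587% to 0.116%. The summed level was therefore widest apart within the high-fat groups, 961 to 4328 CPM in HFW and 516 to 4103 CPM in HF, against 512 to 1180 CPM in NW and 631 to 1131 CPM in N.

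A further 20 collagen chains were listed beside the members. Of these, 19 were in the table, 16 had a tag and 1 had enough to be tested, Col18a1, the basement membrane chain from which endostatin is cut and which hepatocytes also make. It averaged 912 ± 265 CPM in HFW, 939 ± 207 in HF, 862 ± 282 in NW and 1080 ± 133 in N (SD, n = 4 each). Its log2 fold change was -0.20 in HF against N (SE 0.27) and 0.07 in HFW against NW (SE 0.28), neither passing by edgeR. The summed level of the list, which rests mainly on Col18a1 (1316 tags), was 721 CPM in HF mouse 28, the lowest of the HF mice. It was 1137 CPM in HFW mouse 34.

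The enzymes that fold, modify and cross-link collagen had 20 listed genes, 16 with a tag and 1 tested, P4hb, the protein disulfide isomerase that is also a subunit of prolyl 4-hydroxylase. P4hb averaged 2915 ± 1008 CPM in HFW, 3155 ± 486 in HF, 2119 ± 371 in NW and 2425 ± 957 in N (SD, n = 4 each), with a log2 fold change of 0.37 (SE 0.29) in HF against N and 0.46 (SE 0.29) in HFW against NW, neither passing by edgeR. P4ha2, Crtap, Pcolce and Lox were listed at 0 in every library.

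Of 30 other matrix glycoproteins and proteoglycans 24 had a tag and 6 were tested. In HF against N 4 of the 6 were positive with a median of 0.03 (all genes -0.02), and in HFW against NW 4 were positive with a median of 0.37 (all genes 0.05); 0 passed by edgeR in either. Fn1, fibronectin, which hepatocytes also secrete, rose in the mean extract effect (log2 fold change 0.53, SE 0.17, edgeR adjusted p = 0.0187). In that contrast 31.3% of all genes passed. Fn1 averaged 1160 ± 167 CPM in HFW and 840 ± 142 in HF, and 1588 ± 283 in NW and 1047 ± 210 in N (SD, n = 4 each). The other 5 did not pass in any contrast. Of 17 other proteases and inhibitors of matrix turnover 11 had a tag and 0 were tested; the most tagged, Mmp14 and Mmp19, had 24 and 23 tags, and Timp1 was listed at 0.

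Of 23 genes of TGF-beta and PDGF signalling, which drives collagen synthesis in stellate cells, 21 had a tag and 2 were tested. Ltbp4, a latent TGF-beta binding protein, had a log2 fold change of 0.05 (SE 0.28) and Ski, a repressor of Smad signalling, of 0.20 (SE 0.29) in HF against N, and 0 of the 2 passed in any contrast by edgeR. The level of this list rests mainly on these 2 genes, with 1378 tags for Ltbp4 and 916 for Ski. Its sum was 2874 CPM in HF mouse 28, against 1458 to 1865 CPM in the other HF mice. In HFW mouse 34 it was 2123 CPM, against 1024 to 2254 CPM in the other HFW mice.

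Markers of cell types were read beside the members, and their part in the results was not tested. Of 25 other stellate cell markers 16 had a tag. Reln, a secreted glycoprotein, had 153 tags, Vipr1, a peptide receptor, 107, and the defining genes Lrat and Des 1 each, while Acta2, Tagln, Cygb and Gfap were listed at 0. The summed level of the list was 122 to 522 CPM in HFW, 263 to 377 CPM in HF, 261 to 599 CPM in NW and 283 to 384 CPM in N. HFW mouse 34 had 255 CPM, below every N mouse, HF mouse 28 had 377 CPM, the highest in HF, and HFW mouse 38 had 522 CPM. Colec10 and Cxcl12, of the same list, had 67 and 45 tags. The defining markers named here are thus at or near 0 in these libraries, and the members are called here by their genes. The Kupffer cell markers Cd68 and Lyz2 were also listed at 0, so a count of 0 is not read as absence of a cell type.

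Portal fibroblast and smooth muscle markers, with 7 of 12 genes tagged, summed to 105 to 348 CPM in HFW, 119 to 287 CPM in HF, 136 to 221 CPM in NW and 166 to 212 CPM in N. HFW mouse 34 (348 CPM) and HF mouse 28 (287 CPM) were the highest of their groups and of all mice. The level of this list rests mainly on Cd34 (136 tags) and Mylk (103 tags), whereas Thy1 had 2 tags and Mfap4 and Clec3b were listed at 0. Cd34, which endothelial cells also carry, reached 244 CPM in HFW and 221 CPM in HF, against 102 CPM in NW and 106 CPM in N at most.

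Endothelial markers, with 14 of 14 genes tagged, summed to 874 to 1021 CPM in HFW, 969 to 1195 CPM in HF, 836 to 1011 CPM in NW and 648 to 1041 CPM in N. Oit3, the most tagged of them, fell in the mean extract effect (log2 fold change -0.57, SE 0.22, edgeR adjusted p = 0.0476), where 31.3% of all genes passed. It averaged 363 ± 24.9 CPM in HFW and 600 ± 79.3 in HF, and 333 ± 133 in NW and 444 ± 197 in N (SD, n = 4 each). Kupffer cell markers, with 10 of 12 genes tagged, summed to 507 to 1276 CPM in HFW, 568 to 1095 CPM in HF, 563 to 943 CPM in NW and 744 to 980 CPM in N. HFW mouse 34 had the highest sum, at 1276 CPM, and HF mouse 28 had 958 CPM. The Kupffer cell sums rest mainly on C1qa (702 tags). Of 2 tested endothelial and 2 tested Kupffer cell markers 0 passed in HF against N or in HFW against NW by edgeR.

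Hepatocyte markers summed to 51015 to 83561 CPM in HFW, 53832 to 67324 CPM in HF, 88771 to 107294 CPM in NW and 60007 to 90927 CPM in N. The sum was 51015 CPM in HFW mouse 34 and 55890 CPM in HF mouse 28. The level of this list rests mainly on Apoa2 (72150 tags). All 8 tested hepatocyte markers had negative values in HF against N (median -0.47) and in HFW against NW (median -0.57), and 0 passed by edgeR in either. Tdo2 and Ttr rose in the mean extract effect (1.10 and 0.85, edgeR adjusted p = 0.00320 and 0.0141), and Tdo2 in NW against N (1.34, edgeR adjusted p = 0.0206). Over all lists 23 genes were tested. In the mean extract effect 4 of the 23 passed by edgeR, where 31.3% of all genes did, and in NW against N 1 passed, where 11% did. By edgeR 0 of the 23 passed in HF against N or in HFW against NW. DESeq2 called 0 of the 23 in both, where it called 2 and 0 of all genes. An unadjusted p under 0.05 was found there for 0 and 3 of the 23, where 9.85% and 12% of all genes had one. In the mean high-fat effect 0 of the 23 passed by edgeR and 8 had an unadjusted p under 0.05, where 20.6% of all genes had one. DESeq2 called 1 of the 23 in that contrast, where it called 17 of all 1046 genes. The gene was Cps1, a urea cycle enzyme of hepatocytes. Cholangiocyte markers had 3 of 6 genes tagged and at most 93.2 CPM in a mouse, lymphocyte markers 5 of 8 and at most 93.2 CPM, and mesothelial markers 2 of 5, with 2 tags in all.

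**Figure D4:**
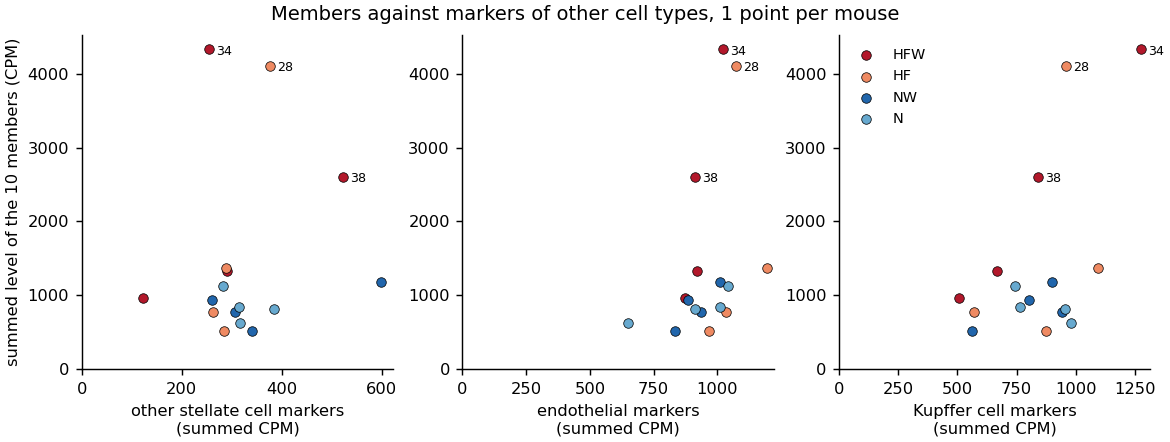
Summed level of the 10 members (vertical axis, CPM) against the summed CPM of other stellate cell, endothelial and Kupffer cell markers (horizontal axes), 1 point per mouse coloured by group. HFW mouse 34 and HF mouse 28 lie at 4328 and 4103 CPM on the vertical axis. For these lists their marker sums are inside or near the range of the other mice, apart from the Kupffer sum of 1276 CPM in HFW mouse 34. Portal fibroblast and smooth muscle markers are not plotted, and their sums were highest in these mice, at 348 and 287 CPM.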

How the data were processed

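Liver RNA of 16 mice was read by SuperSAGE: per the labels' protocols, RNA was captured on biotinylated oligo-dT, cut with NlaIII and EcoP15I, joined to index adapters and amplified by PCR, with no molecular identifiers named. The authors deposited whole-number counts of tags for every RefSeq entry and mouse, per the file headers; the sources used here name no aligner and no RefSeq release. Rows were summed per symbol (26782 rows, 20827 symbols). The 416 rows without a symbol, with 0.0729% of tags, were left out, and 40 of 41 symbols that had been turned into dates were restored.

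All genes were fitted together with edgeR 4.0.16 (R 4.3.3): the default filter at a minimum count of 10, TMM scaling (factors 0.926 to 1.07), a quasi-likelihood test on 4 groups and Benjamini-Hochberg adjustment, called at 0.05. CPM used the normalized library size, and log2 CPM a prior count of 2. The fit was checked on simulated data. DESeq2 1.42.0, its size factors, no TMM, no filter, a minimum count of 20 and leaving out each mouse were the alternatives. No 2 libraries of the same group agreed within sampling noise (chi-square per degree of freedom 2.24 to 9.64). Pairs across groups were not compared. Poisson intervals (95%) and the limit of 3 tags cover counting error only.

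The members and 13 gene lists (202 genes, 201 in the table; Col6a3 was not analysed here) were chosen with earlier results of these data known. From the lists, the text names genes that passed a test, the most tagged genes and, after their values were seen, defining markers listed at 0 or near it. HF mouse 28 and HFW mouse 34 were left out together, and from the unfiltered fit, after seeing the data. A listed marker is not reported here.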

Additional observations from a re-analysis of the deposited data

Results flagged for a closer look

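In groups of 4 mice, 8 of 44 groups checked (10 members and their sum, 4 diets) had a mouse whose gap to its nearest neighbour, over the range of the group, was above Dixon's 95% critical value for 4 samples. Chance gives this in about 1 in 20 groups of continuous values. That rate does not hold for groups of a few tags, where 1 mouse with a tag beside others at 0 is always counted, so no excess can be read from the 8.

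Col1a2 reached 638 CPM in HFW mouse 34, where the other HFW mice had 103 to 140 CPM, and 187 CPM in NW mouse 15, where the other NW mice had 85.3 to 102 CPM. HF mouse 28, the highest HF mouse for Col3a1, Col1a1 and Col1a2, had gaps of 0.799, 0.765 and 0.757 of the range, below the critical value.

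The other 6 flags rest on 1 to 4 tags each. Col5a1 had 46.4 CPM in HFW mouse 34 (4 tags) and 39.7 CPM in N mouse 7 (3 tags), with the other mice of both groups at 0. Dcn had 34.1 CPM in NW mouse 11 (2 tags; the others 17 to 18.7 CPM) and 66.4 CPM in N mouse 8 (4 tags; the others 13.2 to 19.1 CPM). Lum had 55.9 CPM in HFW mouse 38 (3 tags; the others 17.5 to 23.2 CPM). Mmp2 had 9.54 CPM in N mouse 5 (1 tag), with the other N mice at 0.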

How the results depend on the processing

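The members' log2 fold changes kept their direction and their side of the threshold in 333 comparisons with an alternative, turned their sign in 14 and passed the threshold in 3. Without HF mouse 28, Col3a1 and Col1a1 passed in HFW against HF, so that 0 to 2 members were called there when 1 mouse was left out, and Col3a1 passed in the mean extract effect (0 to 1 members); the cause was not tested. Signs that turned were all on leaving out mice. The ranges were -0.09 to 1.49 for Col1a1 in HF against N, -1.55 to 0.45 for Col1a2 in HFW against HF, -0.33 to 0.29 for Col1a1 and -0.02 to 0.36 for Col3a1 in NW against N, and -0.95 to 1.06 for Col1a2 in the interaction, which had -0.03 without HF mouse 28 and HFW mouse 34 together.

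Of the counts of positive members in the unfiltered fit, the interaction's 5 became 8 without HF mouse 28, where 50.9% of all genes were positive. The count became 1 without HFW mouse 34, where 46.2% were, and the cause was not tested. Counts over all genes moved more. The mean high-fat effect called 6 genes, and 30 with no filter, 3 at a minimum count of 20, 17 by the DESeq2 Wald test and 2 without HF mouse 28 and HFW mouse 34. With DESeq2 size factors it called 5 higher and 3 lower, against 3 and 3. HF against N called 1 gene, and 0 at a minimum count of 20 and 2 by DESeq2. NW against N called 115, and 70 with no filter. Leaving out each mouse gave 0 to 31 genes in HF against N, 0 to 3 in HFW against NW, 0 to 107 in the mean high-fat effect, 40 to 150 in HFW against HF and 31 to 178 in NW against N; the cause was not tested. No paired analysis was possible because no mouse number is shared between groups. Depth limits the 7 members below the filter, with 11 to 117 tags each over 16 mice.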
